A study of Mus musculus with 6 samples.

Results

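The endothelial miRNA miR-126a and the miRNAs miR-451a, miR-144 and miR-486, known from red blood cells, were followed in small RNA libraries of the kidney inner medulla, the innermost zone of the kidney. The members were taken by name: the 9 mature names mmu-miR-126a-3p, mmu-miR-126a-5p, mmu-miR-451a, mmu-miR-144-3p, mmu-miR-144-5p and the 5p and 3p arms of mmu-miR-486a and mmu-miR-486b matched 8 of the 1081 rows of the table, and 2 of these rows, miR-486a-3p and miR-486b-3p, held identical values and were counted once, which left 7 measurements. The libraries came from 1-month-old mice, 3 of them DicerAQP2Cre+, in which Dicer1 is deleted in cells that express aquaporin-2, and 3 of them labelled control. Principal cells of the collecting duct take up water through aquaporin-2, so the deletion is aimed at the duct epithelium and not at vessels or blood. The labels do not say which alleles the controls carried, and strain and sex are not analysed here. Whole inner medulla was extracted, so a value mixes every cell type in it, and in such bulk tissue fewer cells of a type and less RNA per cell cannot be told apart.

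As background, Dicer cuts the loop from most precursor hairpins and so releases the mature miRNA. miR-126 is made from a hairpin inside the endothelial gene Egfl7, and it favours vascular growth signalling by repressing Spred1 and Pik3r2. miR-144 and miR-451 come from a shared primary transcript that the erythroid factor GATA1 switches on. miR-451 is the best known miRNA that matures without Dicer, and its hairpin is cut by Argonaute instead. miR-486 lies within Ank1, the gene of a red cell membrane protein that also has a muscle promoter, and miR-486-5p is abundant in red cells and in striated muscle.

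The sequences are shown for the place of each mature miRNA in its hairpin. RefSeq (GRCm38.p6) held 4 of the 9 mature names. Seeds, bases 2 to 8, are in capitals, and 0 other mature miRNAs in that table shared any of the 4 seeds.
miR-126a-3p: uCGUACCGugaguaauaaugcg
miR-451a: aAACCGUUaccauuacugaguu
miR-144-5p: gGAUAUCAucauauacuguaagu
miR-144-3p: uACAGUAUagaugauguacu

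In the hairpins, printed at their full annotated length, capitals mark the mature miRNAs that RefSeq held. The 5p arm of Mir126a is therefore unmarked, although miR-126a-5p was measured.
Mir451a: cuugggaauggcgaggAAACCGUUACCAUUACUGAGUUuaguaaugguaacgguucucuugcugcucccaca
Mir144: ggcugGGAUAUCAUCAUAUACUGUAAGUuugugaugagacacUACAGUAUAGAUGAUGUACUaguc
Mir126a: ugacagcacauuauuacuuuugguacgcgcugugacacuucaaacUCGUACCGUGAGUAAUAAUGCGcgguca
Mature miR-451a occupied bases 17 to 38 of its hairpin of 72 bases. RNAfold placed the terminal loop at bases 35 to 38, so that 18 bases of miR-451a lay before the loop and 4 in it. In Mir144 the predicted loop, bases 31 to 36, held 0 bases of either mature arm, and in Mir126a the loop at bases 36 to 39 held 0 bases of miR-126a-3p. In the GENCODE annotation of GRCm38, Mir126a lies inside Egfl7 and Mir486 inside Ank1, both on the host's strand, while Mir144 and Mir451a are neighbours on the same strand. A further miRNA gene is annotated on the opposite strand at the hairpins of Mir126a, Mir451a and Mir486. Whether counting used the strand is not stated in the labels.

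Recovered reads, the whole read counts behind the deposited values, totalled 7614853, 2934851 and 5694159 in DicerAQP2Cre+ replicates 1 to 3 and 6780624, 6205756 and 4924091 in control replicates 1 to 3. Levels are given as normalized reads, which are reads divided by a size factor for each library, and 1 read was worth between 0.740 and 1.96 normalized reads. The columns of the DicerAQP2Cre+ mice were matched to their titles from an abbreviated name, so each direction rests on that reading.

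**Figure D1:**
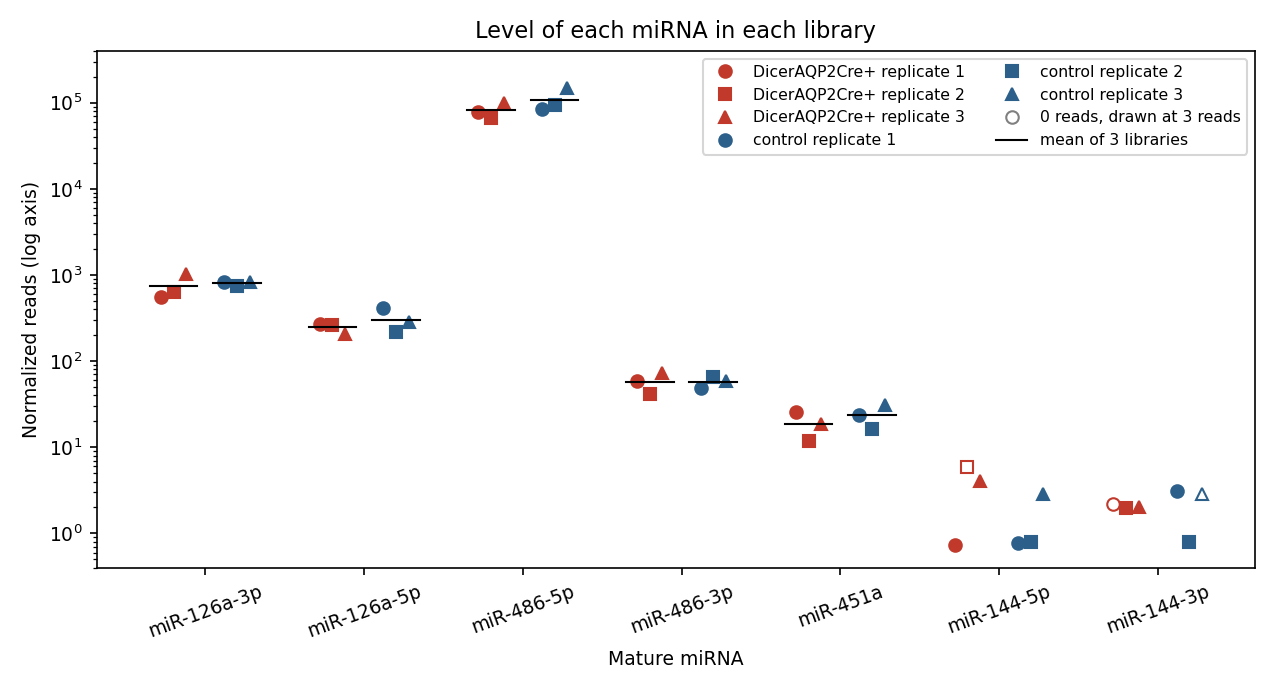
Normalized reads (log axis) of the 7 miRNA measurements in each library, with DicerAQP2Cre+ libraries left of control libraries, a bar at the mean of 3 libraries (not drawn for miR-144) and open symbols for libraries with 0 reads, drawn at the value of 3 reads. The levels span from miR-486-5p, at 66025 to 147189, to the miR-144 arms, at 0 to 4.09, and the genotypes overlap for each miRNA.

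None of the tested miR-126a, miR-451a and miR-486 entries passed the test between genotypes. The question was whether they differ in a tissue in which Dicer1 deletion is aimed at duct cells. How far Dicer1 was lost was not measured here. Of the 7 measurements, 5 passed the filter of a mean of at least 5 normalized reads, and 0 of these 5 were called by limma at an adjusted p under 0.05, where 8.46% of the 461 entries tested were called (4.99% lower and 3.47% higher). At an unadjusted p under 0.05 the count was again 0 of 5, against 28.0% of all entries, and it was 0 of 5 by edgeR (9.11% of entries called) and by DESeq2 (16.2% of the 371 entries with an adjusted p called). The genotypes did not overlap for 0 of the 5, against 33.6% of entries tested. All 5 log2 fold changes were below 0, against 233 of the 461 entries tested. Their median was -0.25, beside a median of -0.01 over all entries tested. By edgeR and by DESeq2, 4 of the 5 were below 0. The 5 include both arms of miR-126a and of miR-486, so they are not independent of each other. Each library is from its own mouse per the series design, and the SDs thus cover differences among animals.

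miR-126a-3p, the main arm of the endothelial hairpin, had 557, 641 and 1037 normalized reads in DicerAQP2Cre+ replicates 1 to 3, against 821, 743 and 836 in control replicates 1 to 3. The DicerAQP2Cre+ libraries held both the highest value and the lowest ones, and replicate 3 was the high one. The mean was 745 ± 256 in DicerAQP2Cre+ samples and 800 ± 49.999 in controls (SD, n = 3 each), with a log2 fold change of -0.15 ± 0.26 (SE, limma adjusted p = 0.743). The 95% interval, -0.72 to 0.42, spans levels from 0.606-fold to 1.33-fold those of controls. Without DicerAQP2Cre+ replicate 3 the log2 fold change was -0.42 (unadjusted p = 0.0459, limma adjusted p = 0.122), and without DicerAQP2Cre+ replicate 1 it was 0.03 (adjusted p = 0.948).

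miR-126a-5p, the other arm, had 273, 263 and 208 normalized reads in DicerAQP2Cre+ replicates 1 to 3, against 408, 218 and 285 in control replicates 1 to 3. Here DicerAQP2Cre+ replicate 3 was the lowest library, although it was the highest for the 3p arm. The log2 fold change was -0.25 ± 0.27 (interval -0.86 to 0.35, limma adjusted p = 0.598). It was -0.02 without control replicate 1, the library with the most miR-126a-5p, and -0.47 without control replicate 2 (adjusted p = 0.989 and 0.425).

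The balance between the arms does not depend on how libraries are scaled. miR-126a-5p made up 32.9%, 29.1% and 16.7% of the reads of both arms in DicerAQP2Cre+ replicates 1 to 3, against 33.2%, 22.7% and 25.5% in control replicates 1 to 3. The exact 95% binomial interval of DicerAQP2Cre+ replicate 3, 14.7% to 19.0%, lay below the intervals of all other libraries, the nearest being 20.3% to 25.1% in control replicate 2. Such intervals cover counting error at most, and they treat each read as an independent molecule. PCR copies are not independent, so the intervals may be too narrow even for that. As groups the means were 26.2 ± 8.44% in DicerAQP2Cre+ samples and 27.1 ± 5.47% in controls (exact two-sided permutation p = 0.9, adjusted over 7 such tests 0.9). The difference of -0.89 percentage points turned to 3.86 without DicerAQP2Cre+ replicate 3 and to 2.17 without control replicate 1. Both arms together stood at 830 to 1245 normalized reads in DicerAQP2Cre+ samples and 961 to 1229 in controls (exact p = 0.5, adjusted 0.875).

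**Figure D2:**
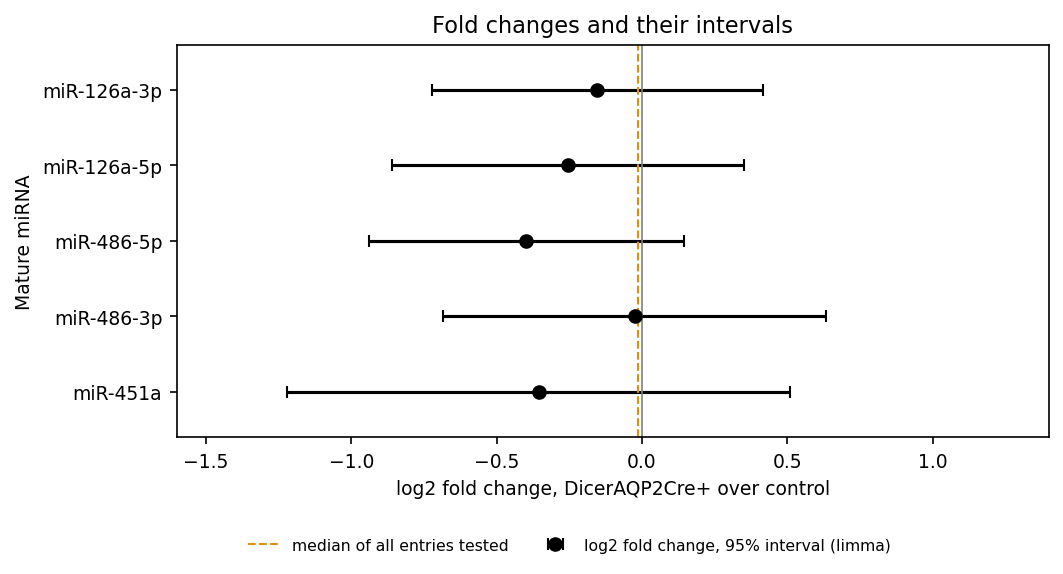
Log2 fold change of the 5 tested miRNAs, DicerAQP2Cre+ over control, with 95% intervals from limma and the median of all 461 entries tested (dashed). Each interval covers 0, and that of miR-451a is the widest, from -1.22 to 0.51.

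miR-486-5p was the member with by far the most reads, at rank 9 of all 1081 entries by mean level. It had 78643, 66025 and 98694 normalized reads in DicerAQP2Cre+ replicates 1 to 3, against 84598, 94115 and 147189 in control replicates 1 to 3. The highest library was control replicate 3 and the lowest DicerAQP2Cre+ replicate 2, and the groups overlapped. The mean was 81120 ± 16475 in DicerAQP2Cre+ samples and 108634 ± 33727 in controls (SD, n = 3 each), that is 1.41 ± 0.275% and 2.21 ± 0.773% of all normalized reads. The log2 fold change was -0.40 ± 0.24 (interval -0.94 to 0.14, limma adjusted p = 0.316), and -0.16 without control replicate 3 (adjusted p = 0.765). It was -0.55 without DicerAQP2Cre+ replicate 3 (unadjusted p = 0.0296, limma adjusted p = 0.0896) and -0.56 without control replicate 1 (adjusted p = 0.263). With libraries set to equal totals it was -0.61 (unadjusted p = 0.0392, limma adjusted p = 0.139), a scaling that moved the median of all entries to -0.21. The mature sequences of miR-486a and miR-486b are counted as a single joined entry, so the copies cannot be told apart.

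miR-486-3p, the passenger arm, had 58.4, 41.2 and 73.6 normalized reads in DicerAQP2Cre+ replicates 1 to 3, against 48.5, 65.2 and 59.0 in control replicates 1 to 3. The values of both genotypes covered much the same range. The log2 fold change was -0.02 ± 0.30 (interval -0.68 to 0.63, limma adjusted p = 0.962). The 5p arm exceeded it 1342-fold to 1604-fold in DicerAQP2Cre+ libraries and 1443-fold to 2493-fold in control libraries, whereas the miR-126a arms differed by 2.04-fold to 4.98-fold and by 2.01-fold to 3.41-fold.

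miR-451a, the miRNA that matures without Dicer, had 25.9, 11.8 and 18.4 normalized reads in DicerAQP2Cre+ replicates 1 to 3, against 23.8, 16.5 and 31.0 in control replicates 1 to 3. These stand for only 35, 6 and 18 reads against 31, 21 and 32 reads. The 6 reads of DicerAQP2Cre+ replicate 2, the shallowest library, carry an exact 95% Poisson interval of 2.20 to 13.1 reads. The log2 fold change was -0.35 ± 0.39 (limma adjusted p = 0.605). Its interval, -1.22 to 0.51, was the widest of the 5 and spans levels from 0.429-fold to 1.42-fold those of controls. Without DicerAQP2Cre+ replicate 2 the value was -0.07, and without DicerAQP2Cre+ replicate 1 it was -0.61 (adjusted p = 0.923 and 0.386).

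miR-144, the Dicer-dependent partner of miR-451a, had very few reads. miR-144-5p had 1, 0 and 4 reads in DicerAQP2Cre+ replicates 1 to 3, against 1, 1 and 3 reads in control replicates 1 to 3. miR-144-3p had 0, 1 and 2 reads in DicerAQP2Cre+ replicates 1 to 3, against 4, 1 and 0 reads in control replicates 1 to 3. A count of 0 allows up to 3 reads, or 2.22 to 5.88 normalized reads in the DicerAQP2Cre+ libraries concerned and 2.90 in control replicate 3. Both arms fell below the filter, and a difference between genotypes was not detectable at this depth.

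Since both hairpins leave the same transcript, the share of miR-451a within it sets a Dicer-independent product beside a Dicer-dependent one in the same library. miR-451a made up 97.2%, 85.7% and 75.0% of the reads of miR-451a and both miR-144 arms in DicerAQP2Cre+ replicates 1 to 3, against 86.1%, 91.3% and 91.4% in control replicates 1 to 3. The DicerAQP2Cre+ libraries held the highest and the lowest share, and the exact 95% binomial intervals were wide, 42.1% to 99.6% in DicerAQP2Cre+ replicate 2, where 7 reads were counted in all. The means were 86.0 ± 11.1% in DicerAQP2Cre+ samples and 89.6 ± 3.03% in controls (exact two-sided permutation p = 0.7, adjusted 0.9, n = 3 each). The difference of -3.64 percentage points turned to 1.85 without DicerAQP2Cre+ replicate 3. The transcript is known from red cells, at which the deletion is not aimed, and each miR-144 arm had only 0 to 4 reads a library. The share therefore could not show an effect of Dicer1 loss, and no conclusion is drawn from it.

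**Figure D3:**
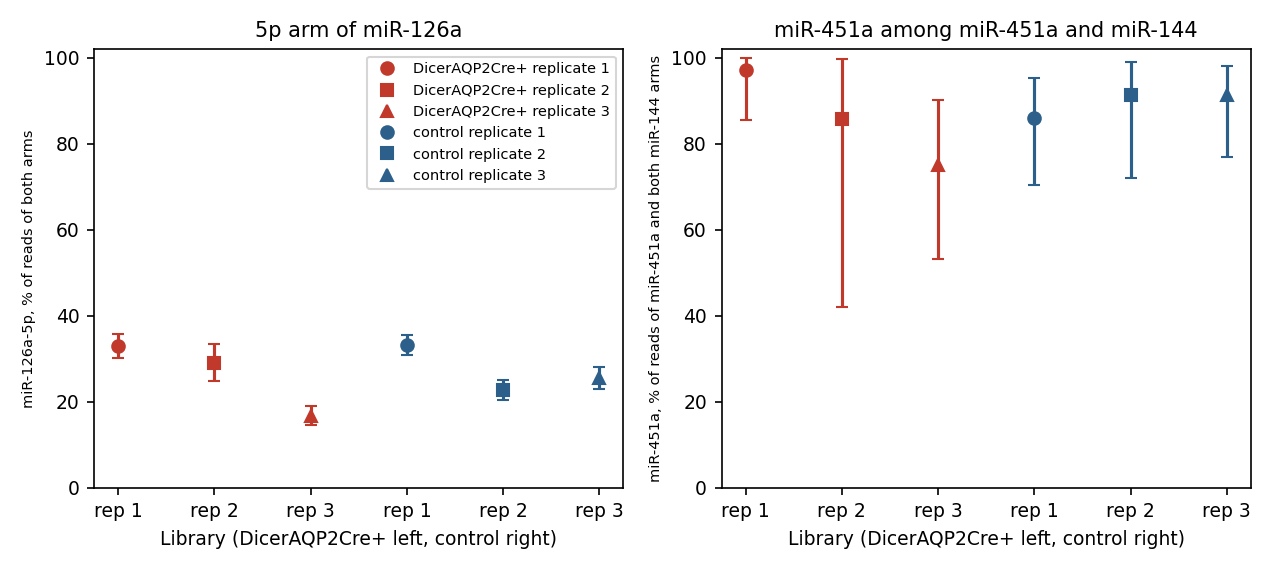
Share of miR-126a-5p among reads of both miR-126a arms (left) and of miR-451a among reads of miR-451a and both miR-144 arms (right) in each library, in percent, with exact 95% binomial intervals. DicerAQP2Cre+ replicate 3 has the lowest share in both, 16.7% and 75.0%, and the genotypes overlap in both.

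The erythroid name was set against these levels. In red cells miR-451a is among the most abundant miRNAs, but here the reads of miR-486-5p exceeded those of miR-451a 3037-fold, 5616-fold and 5367-fold in DicerAQP2Cre+ replicates 1 to 3, against 3548-fold, 5701-fold and 4753-fold in control replicates 1 to 3. These are ratios of reads, and how well each sequence is captured in a library was not measured. miR-451a stood at rank 320, and the arms of miR-144 at ranks 617 and 646. The 3 erythroid miRNAs thus did not share a level of reads. Nearly all of their sum was miR-486-5p, and the sum was 66080 to 98792 normalized reads in DicerAQP2Cre+ samples and 84674 to 147282 in controls (exact permutation p = 0.3, adjusted 0.7). The ratio of miR-486-5p to miR-451a gave a log2 difference of -0.02 between genotypes (exact two-sided permutation p = 0.9, adjusted 0.9). Markers of striated muscle, the other known source of miR-486, were chosen for a check after these values were seen. Of 7 such names only 3 matched a row, miR-133a-3p, miR-133b-3p and miR-206-3p, and the names without a row could not be checked. The summed level of the 3 was 26.6 to 48.0 normalized reads in DicerAQP2Cre+ samples and 32.9 to 49.5 in controls, nearly all of it miR-133a-3p. Which cells the miR-486-5p reads came from was not tested.

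The duct epithelium was the tissue part aimed at. A list of 10 entries from the miR-200 and miR-30 families, called the collecting duct list, was written with earlier results of these data known. The name is a label, and whether these miRNAs are particular to the duct was not tested. Of these 10 entries, 9 were called lower by limma and 0 higher, where 4.99% of the 461 entries tested were called lower. The median log2 fold change of the 10 was -1.12. Which cells their reads came from was not tested. All 10 were below 0 with any library left out, but limma called 0 of them without control replicate 2 or without control replicate 3, 3 without control replicate 1, and 4 without DicerAQP2Cre+ replicate 2. Summed, the 10 entries had 119888, 136724 and 231017 normalized reads in DicerAQP2Cre+ replicates 1 to 3, against 329714, 312533 and 342395 in control replicates 1 to 3. Of this sum, 83.3% to 89.7% in DicerAQP2Cre+ libraries and 85.7% to 87.2% in control libraries was miR-30d-5p and miR-30a-5p, and miR-30a-5p was the entry not called. DicerAQP2Cre+ replicate 3 was nearest to the controls in the sum and in 7 of the 10 entries, but the farthest in miR-141-3p and miR-30e-5p. It was also the highest of its group in miR-126a-3p and miR-486-5p.

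Per 1000 reads of the duct list, miR-126a-3p had 4.65, 4.69 and 4.49 reads in DicerAQP2Cre+ replicates 1 to 3, against 2.49, 2.38 and 2.44 in control replicates 1 to 3. The groups did not overlap, and within each genotype the values lay close together. The log2 ratio differed by 0.92 between genotypes, with an SD within genotypes of 0.03 and 0.03 (exact two-sided permutation p = 0.1, the smallest that 3 against 3 can give, adjusted 0.7). It lay between 0.90 and 0.94 with each library left out in turn. The comparison was added with the fall of the duct list known. miR-126a-3p itself had a log2 fold change of -0.15, so the direction of the ratio came from the duct list. That list's sum is mainly miR-30d-5p and miR-30a-5p. The ratio, its exact p and its range with libraries left out are therefore a description, not a test of miR-126a-3p.
For miR-486-5p the same measure was 656, 483 and 427 reads in DicerAQP2Cre+ replicates 1 to 3, against 257, 301 and 430 in control replicates 1 to 3. Here control replicate 3 exceeded DicerAQP2Cre+ replicate 3, and the log2 difference was 0.68 (exact p = 0.2, adjusted 0.7). The same limit applies, as miR-486-5p itself had a log2 fold change of -0.40.

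**Figure D4:**
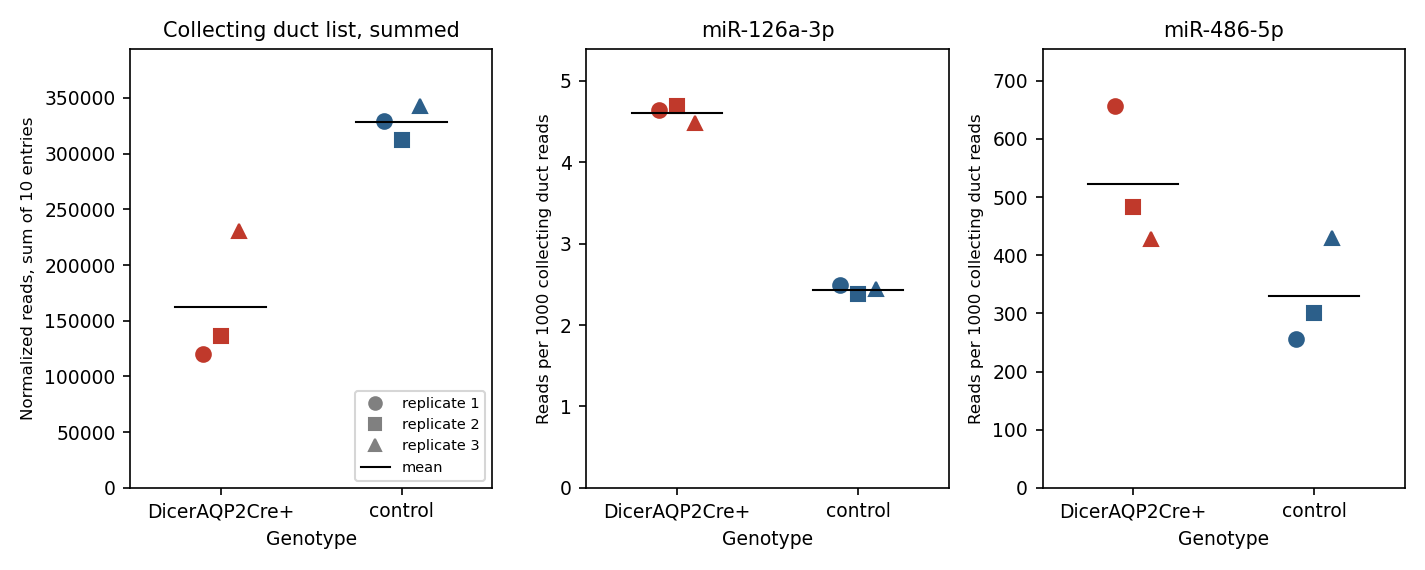
Summed normalized reads of the 10 entries of the collecting duct list (left), and miR-126a-3p (middle) and miR-486-5p (right) per 1000 of those reads. DicerAQP2Cre+ and control libraries are shown, with a bar at the mean. miR-126a-3p lies at 4.49 to 4.69 in DicerAQP2Cre+ libraries and 2.38 to 2.49 in controls, while the miR-486-5p values overlap. The fall of the list, mostly miR-30d-5p and miR-30a-5p, sets the direction of both ratios.

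Other miRNAs linked to vessels and red cells were counted in the same fit. Of 8 further entries linked to endothelium or vessel growth, 0 were lower and 1 was higher, miR-132-3p, which CREB induces and which promotes vessel growth (log2 fold change 1.22 ± 0.26, limma adjusted p = 0.0164). It was not called without DicerAQP2Cre+ replicate 2 or without any 1 of the control replicates. The median of these entries was -0.13. Of 6 further red cell entries tested 0 were called by limma, and the median was -0.44. The genotypes did not overlap for 2 of the 6, miR-16-5p and miR-92a-3p, which is near the 33.6% of all entries tested. Their log2 fold changes were -0.71 and -0.62 (limma adjusted p = 0.0918 for each), while miR-15b-5p had one of 0.74 (adjusted p = 0.135). With equal library totals 2 of the 6 were called lower. With a library left out, 1 of the 6 was called lower without DicerAQP2Cre+ replicate 1, and 1 higher without DicerAQP2Cre+ replicate 3. Of 6 leukocyte entries tested 0 were called by limma. By DESeq2, with equal library totals or with log2(value + 5), 1 of the 6 was called lower. Without DicerAQP2Cre+ replicate 3, 1 was lower and 1 higher. The summed leukocyte level overlapped, at 17142 to 39996 normalized reads in DicerAQP2Cre+ samples and 13464 to 36734 in controls. That sum is mostly miR-150-5p, and the members went different ways. On the log2 scale the fold change was -1.47 for miR-155-5p (by limma, adjusted p = 0.0512) and 0.58 for miR-342-3p (adjusted p = 0.130). These 2 of the 6 did not overlap between genotypes, which is near the 33.6% of all entries tested. Of 8 stromal entries tested, 2 were higher, miR-214-3p and miR-145a-5p, and 0 lower. All 8 had a log2 fold change above 0, against 228 of the 461 entries tested. The genotypes did not overlap for 4 of the 8, against 33.6% of entries tested. The count of higher entries was 0 without control replicate 2, control replicate 3 or DicerAQP2Cre+ replicate 2, 1 without control replicate 1 or DicerAQP2Cre+ replicate 1, and 5 without DicerAQP2Cre+ replicate 3. The summed stromal level was 27753 to 40289 normalized reads in DicerAQP2Cre+ samples and 23401 to 24725 in controls, and its part in the miR-126a and miR-486 values was not tested.

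**Figure D5:**
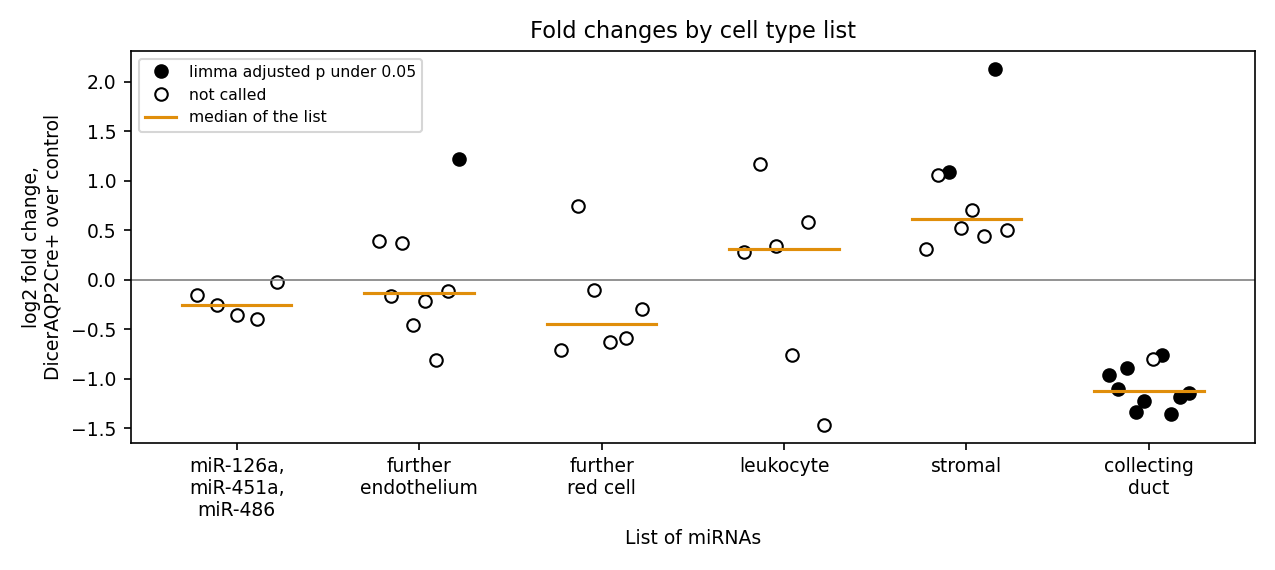
Log2 fold change, DicerAQP2Cre+ over control, of each tested entry by list, with filled points for entries called by limma at an adjusted p under 0.05 and a line at the list's median. The miR-126a, miR-451a and miR-486 entries have a median of -0.25 with 0 of 5 called, and the collecting duct entries one of -1.12 with 9 of 10 called. Of all 461 entries tested, 8.46% were called.

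The entries whose levels moved most like those of miR-126a-3p across the 6 libraries were miR-103-3p, let-7j and miR-26b-3p. Likeness was the root mean square difference of log2 levels after each entry was centred on its own mean, and it was 0.11, 0.12 and 0.13 for these entries, beside a median of 0.52 over the other tested entries. Their log2 fold changes of -0.03, -0.15 and -0.18 are given as a description, since likeness over the same libraries chose them. For miR-451a the nearest were miR-92b-3p, miR-296-3p and miR-210-5p, at 0.23, 0.28 and 0.30, beside a median of 0.60.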

How the data were processed

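Small RNA libraries were made from total RNA with the TruSeq protocol, per the labels' protocols. Each deposited signal value is the number of reads of a mature miRNA, which the authors divided by the size factor of its library. This was read from the values, of which 100% were whole multiples of the smallest value in their column within 0.01 read. Per the submitters' processing notes, DESeq2, FastQC 0.11.3 and the mm9 genome were used. Aligner and counter: not given in the sources used here. The reference annotation is of another build, so no coordinates are printed. Depth was 2934851 to 7614853 recovered reads.

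The main test was limma 3.58.1 (R 4.3.3) with a mean-variance trend on log2(value + 1), which understates the change of low entries, over 461 entries with a mean of at least 5. P-values were two-sided and Benjamini-Hochberg adjusted over all 461. edgeR 4.0.16 and DESeq2 1.42.0 were run on recovered reads of the same entries. Shares, sums and ratios were compared by exact permutation tests (scipy 1.17.1), adjusted over the 7 of them. Hairpins were folded with RNAfold 2.7.2.

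Members, lists and ratios were chosen with earlier results of these data known. Named miRNAs were all members, at most 3 called entries from each list, and the 3 entries nearest to miR-126a-3p and to miR-451a. Outside this rule, and chosen after their values were seen, were miR-16-5p, miR-92a-3p, miR-15b-5p, miR-150-5p, miR-155-5p and miR-342-3p. So were the striated muscle entries and the individually described miR-30 and miR-141 entries.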

Additional observations from a re-analysis of the deposited data

How the results depend on the processing

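In every setting tried, 0 of the miR-126a, miR-451a, miR-144 and miR-486 entries were called at an adjusted p under 0.05. miR-126a-5p, miR-451a and miR-486-5p kept a log2 fold change below 0 in each setting that tested them, from -0.47 to -0.02, -0.61 to -0.07 and -0.61 to -0.16. miR-126a-3p ranged from -0.42 to 0.029, with the 0.029 found without DicerAQP2Cre+ replicate 1. miR-486-3p was above 0 by edgeR (0.069) and DESeq2 (0.056) and without DicerAQP2Cre+ replicate 2 (0.20) or control replicate 2 (0.069), and lay between -0.22 and 0.20 with a library left out. With no filter the miR-144 arms were tested too, at 0.10 (3p) and -0.16 (5p), resting on 0 to 4 reads a library. Leaving out a library moved the arm share difference of miR-126a between -4.22 and 3.86 percentage points, and the miR-451a share difference between -9.26 and 1.85. It moved the log2 difference of miR-486-5p to miR-451a between -0.21 and 0.26, which was above 0 without DicerAQP2Cre+ replicate 1 (0.26), control replicate 2 (0.13) or control replicate 3 (0.003). Over all entries limma called 23 lower and 16 higher, against 48 lower with equal totals, 11 lower and 7 higher without a trend, and 31 lower and 29 higher by DESeq2; the cause was not tested. Leaving out a library gave 0 to 62 lower and 0 to 43 higher, with 0 of either without control replicate 2 or 3. Same-numbered libraries of both genotypes did not deviate together (correlations of -0.06, 0.005 and 0.06, beside -0.09 to 0.10 for differently numbered ones). With 3 libraries per genotype this check is weak, and it cannot exclude that same-numbered libraries were handled together. With the replicate number as a block limma called 18 lower and 14 higher. Thinning to 2934851 reads, chosen after the data were seen, gave 26 and 20.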
